A study of Saccharomyces cerevisiae with 66 samples.

Results

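PCL10 encodes a cyclin of the Pho85 kinase that directs this kinase to glycogen synthase, and it lies on the left arm of budding yeast chromosome VII. Here it was a viewpoint of MTAC, an assay of which DNA comes close to a chosen site in living cells. Table members were all 4828 nucleosome-depleted regions (NDRs) measured with the LacO array at PCL10, out of a series of 66 libraries and 21 comparison tables. An NDR is a short stretch, mostly in a promoter, that nucleosomes leave open.

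In MTAC the bacterial enzyme M.CviPI, which methylates cytosine in GC dinucleotides, is fused to the Lac repressor, and the repressor binds an inserted array of LacO operators. Yeast has no cytosine methylation of its own, so methylated DNA marks what the enzyme reached. The enzyme works mainly where nucleosomes are absent, and NDRs are therefore the units that are read. Unbound enzyme also methylates open DNA anywhere in the nucleus, and a strain without LacO measures that background.

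The PCL10 strain (yLB121a-PCL10) carried 256 LacO copies and the HIS3 marker at PCL10, and the control strain (yLB121a) carried neither. Both were W303-derived MATa haploids with the mutations ade2-1, can1-100, ura3-1, trp1-1, his3-11,15 and the double allele leu2-3 and leu2-112. Both also held the fusion gene, behind lexO sites and a GAL1 core promoter, beside an ADH1-promoter-driven LexA-ERHBD-VP16AD activator, integrated at ADH1 with LEU2. The 2 h of 2 nM β-estradiol that switches the fusion on were given to both, at 30 °C in synthetic medium. The labels do not say whether that medium held methionine for these libraries. Each group had 2 libraries of DNA precipitated with an antibody against 5-methylcytosine.

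The values in the PCL10 table are summaries over libraries, so no value of a single library can be given. For each NDR they are the base mean (the mean normalized read count over the 4 libraries), the log2 fold change of the PCL10 strain over the control, and its standard error (SE). NDRs were called higher where the log2 fold change was above 0.7 and the adjusted p (Wald test, Benjamini-Hochberg over 4828 NDRs) was below 0.05, and called lower below -0.7 with the same limit on p. Uniquely mapped reads numbered 1894009 and 4636618 in the PCL10 libraries, against 7576467 and 6497995 in the control libraries. The base mean had a median of 43.9 and the SE a median of 0.27. A log2 difference well above that SE could still fail the test. The NDR at RPL1B and MRM2, at 0.77 (SE 0.26), had an adjusted p of 0.148 (Wald test).

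PCL10 (YGL134W) occupies VII:255663-256964 on the plus strand of sacCer3, 241 kb from the centromere. Distances below run from the midpoint of the gene to the start of an NDR. The sequences of the NDRs next to PCL10 and of the called NDRs that stood out are shown first, because the enzyme can act only at the GC dinucleotides they hold. They are read from the plus strand of the reference genome, with every GC in capitals, and NDRs over 300 bases are cut to their middle 300.

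ITC1, VII:257271-257439: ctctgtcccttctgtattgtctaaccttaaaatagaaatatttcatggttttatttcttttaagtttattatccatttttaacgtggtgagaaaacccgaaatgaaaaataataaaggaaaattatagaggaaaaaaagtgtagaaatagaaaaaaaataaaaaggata
PCL10/RPL1B, VII:255329-255515: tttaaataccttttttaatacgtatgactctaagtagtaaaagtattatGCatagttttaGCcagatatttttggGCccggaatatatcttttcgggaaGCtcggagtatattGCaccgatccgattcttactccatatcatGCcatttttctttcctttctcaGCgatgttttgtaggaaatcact
SOH1/SCS3, VII:270804-270934: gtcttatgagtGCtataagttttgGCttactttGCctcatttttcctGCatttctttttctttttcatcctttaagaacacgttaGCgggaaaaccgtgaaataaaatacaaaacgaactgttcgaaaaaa
SCS3/MET13, VII:271936-272235: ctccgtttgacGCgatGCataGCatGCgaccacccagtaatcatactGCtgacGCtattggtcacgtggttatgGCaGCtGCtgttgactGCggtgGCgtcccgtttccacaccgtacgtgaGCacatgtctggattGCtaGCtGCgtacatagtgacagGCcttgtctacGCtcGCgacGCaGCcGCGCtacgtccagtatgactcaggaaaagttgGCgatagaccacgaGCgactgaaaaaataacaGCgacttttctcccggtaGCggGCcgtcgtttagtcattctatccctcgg
STR3, VII:156271-156493: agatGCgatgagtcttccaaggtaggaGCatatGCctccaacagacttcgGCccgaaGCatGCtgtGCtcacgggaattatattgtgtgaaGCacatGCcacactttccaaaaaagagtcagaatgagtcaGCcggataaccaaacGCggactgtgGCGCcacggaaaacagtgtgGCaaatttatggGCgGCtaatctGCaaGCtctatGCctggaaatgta
MUP1, VII:598888-599187: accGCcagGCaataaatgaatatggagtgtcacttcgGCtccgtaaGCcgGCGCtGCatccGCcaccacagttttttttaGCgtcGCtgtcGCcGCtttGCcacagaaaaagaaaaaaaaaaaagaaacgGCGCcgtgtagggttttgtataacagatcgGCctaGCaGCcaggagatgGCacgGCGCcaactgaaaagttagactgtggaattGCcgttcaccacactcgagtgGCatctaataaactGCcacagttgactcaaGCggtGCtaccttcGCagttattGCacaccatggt

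The ITC1 sequence has no capital: this NDR held 0 GC sites, while the median over the 455 NDRs of chromosome VII was 6, and 97.6% of them held at least 1. With 300 bp added on each side, the ITC1 window held 14 GC sites against a median of 30, and 2 of the 455 windows held fewer. The reference does not contain the inserted LacO and HIS3 DNA, and sequenced fragments of 300 to 600 bp reach beyond such a short NDR. The paper also lists sequence homologous to PCL10 on the integrated plasmid, and its part in the ITC1 value was not tested. STR3 held 19 GC sites and the whole MUP1 NDR 37, against 58 in the whole SCS3/MET13 NDR, the most among the 12 called on VII.

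With the LacO array at PCL10, the highest log2 fold change was at a single NDR next to PCL10, that of ITC1 (3.80). The NDR on the other side of the gene, PCL10/RPL1B, was at 1.00, below distant NDRs such as STR3 (2.05) and MUP1 (1.27). Few NDRs of the table were called. In all, 29 NDRs (0.601% of 4828) were called higher and 9 (0.186%) were called lower. Of the 29, 5 lay within 30 kb of PCL10, 7 lay farther along chromosome VII, and 17 lay on other chromosomes. As shares of the NDRs available, these were 23.8% of the 21 local NDRs, 1.61% of the 434 far NDRs of VII and 0.389% of the 4373 NDRs of the other 15 chromosomes.

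**Figure D1:**
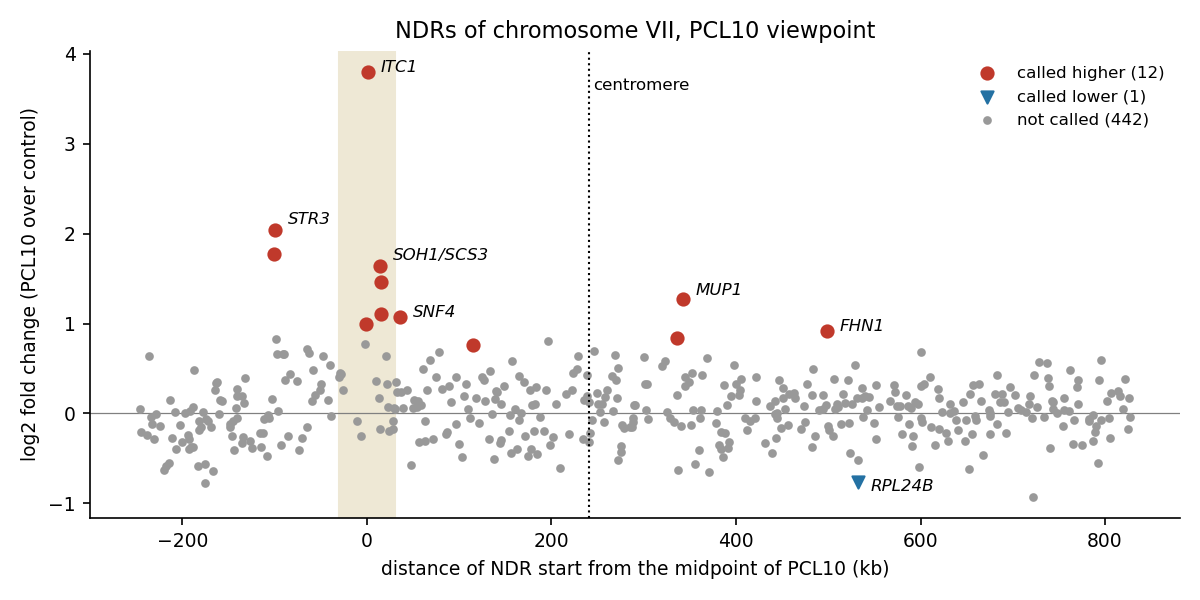
Log2 fold change (PCL10 strain over control) of the 455 NDRs of chromosome VII against distance from the midpoint of PCL10 in kb; red points are NDRs called higher, the blue triangle is called lower, grey points are not called, the shaded band is 30 kb to each side and the dotted line is the centromere. The ITC1 NDR stands at 3.80, STR3 at 2.05 and MUP1, 342 kb away across the centromere, at 1.27.

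Beside PCL10, the promoter NDR of ITC1 had the highest log2 fold change of all 4828 NDRs. ITC1, the next gene downstream of PCL10, encodes a subunit of the Isw2 chromatin remodeller. Its NDR starts 0.958 kb from the midpoint of PCL10, had a base mean of 218 and rose by 3.80 (SE 0.23, adjusted p = 2.10e-56, Wald test with Benjamini-Hochberg adjustment). In the tables of the 10 other viewpoints that used the 2 h control, its base mean was between 9.30 and 17.6 and its log2 fold change between -1.10 and 0.03.

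On the other side of PCL10 the signal was smaller. Sides are those of the gene, since the insertion point of the array within it was not used. The NDR between RPL1B, a gene for a large ribosomal subunit protein, and PCL10 itself starts 0.985 kb upstream and rose by 1.00 (SE 0.23, adjusted p = 0.00684). The next NDR upstream, at RPL1B and MRM2, starts 2.04 kb from the midpoint and was at 0.77 (SE 0.26), which did not pass the test (adjusted p = 0.148). At 6.71 kb upstream, the NDR of SEC27, a coat protein gene of Golgi vesicles, was at -0.26 (SE 0.28). The 2 NDRs nearest to PCL10 on the left were thus above 0.7, and the next 2, at SEC27 and at FLC3 11.1 kb away, were below 0.

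To the right of ITC1 no NDR of the table lies before 9.62 kb, where the NDR shared by SNT2 and CEG1 was at 0.36 (SE 0.27). RSM23, a mitochondrial ribosomal protein gene 12.8 kb away, was at 0.17 (SE 0.28). The NDR upstream of CWC23, 13.9 kb away, was at -0.17 (SE 0.25). None of these 3 passed the test, and all lie nearer to PCL10 than the cluster described next.

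A second group of local NDRs lies 14.5 to 15.4 kb downstream, around SCS3, which acts in the synthesis of lipid droplets, and MET13, the main methylenetetrahydrofolate reductase of methionine synthesis. The NDR between SOH1, a Mediator subunit gene, and SCS3 rose by 1.64 (SE 0.22, adjusted p = 1.95e-10) at a base mean of 144. An NDR starting inside SCS3 rose by 1.10 (SE 0.30, adjusted p = 0.0387) at a base mean of 2391. The NDR that runs from SCS3 into the MET13 promoter rose by 1.46 (SE 0.30, adjusted p = 8.34e-04) at a base mean of 3919.

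The 2 NDRs in SCS3 ranked 4 and 6 of 4828 by base mean, and they had the highest SEs among the 65 NDRs with a base mean over 500. The median SE of those 65 was 0.19, and the highest outside SCS3 was 0.23. Starts of the 3 NDRs at SOH1 and SCS3 lie within 1 kb of each other, so one sequenced fragment can be counted in several, and they are not 3 separate observations. Counted once, the local calls fall in 3 places.

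The remaining local NDRs were not called. MON1 and RPS2, 20.8 kb downstream, share an NDR at 0.64 (SE 0.24, adjusted p = 0.206), and a second RPS2 NDR was at 0.33. The 4 NDRs from 24.2 to 29.6 kb and the one beside NAB2 at 22.4 kb, among GPG1, PRP43 and COQ8, ranged between -0.19 and 0.07. Upstream, the 3 NDRs at RPL9A and TIP20, 26.5 to 28.8 kb away, lay between 0.25 and 0.45. The 21 local NDRs had a median of 0.33, against -0.01 over the whole table, and 15 of the 21 were above 0.

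**Figure D2:**
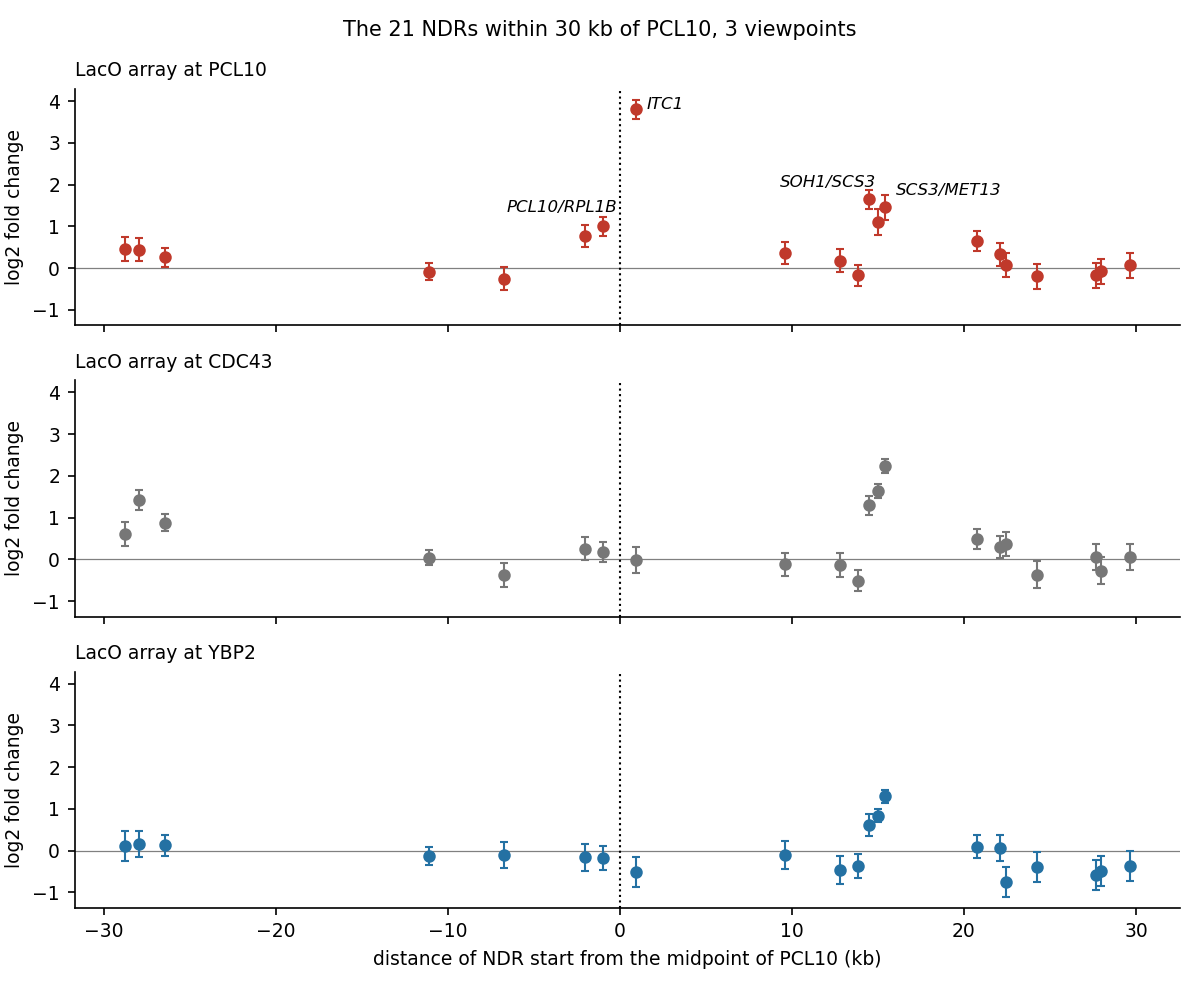
Log2 fold change of the 21 NDRs within 30 kb of PCL10, against distance from its midpoint in kb, with the LacO array at PCL10, at CDC43 or at YBP2; points are NDRs, bars are 1 SE, and all 3 tables use the same control. ITC1 is at 3.80 with the array at PCL10, -0.02 at CDC43 and -0.50 at YBP2, whereas SCS3/MET13 is at 1.46, 2.24 and 1.30.

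Between 30 and 50 kb from PCL10, 1 of 14 NDRs was called. It is the promoter NDR of SNF4, the activating subunit of the Snf1 energy-sensing kinase, 35.4 kb downstream. SNF4 rose by 1.07 (SE 0.25, adjusted p = 0.00848), while its neighbours at CDC20 and YGL114W were at 0.24 and 0.23. In the 10 other tables with the 2 h control SNF4 was between -0.35 and 0.87, with a median of 0.28. Among the other viewpoints on VII it was at 0.29 with the array at CDC43, 0.10 at PUS2, 0.87 at YBP2 and 0.06 at OLE1, so YBP2 gave the highest of the 10.

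Along the rest of the chromosome the median per distance class stayed low. It was 0.25 at 30 to 50 kb, 0.15 at 50 to 100 kb (41 NDRs, none called) and -0.01 at 100 to 150 kb. Farther out it was -0.07 at 150 to 250 kb, 0.03 at 250 to 400 kb (64 NDRs, 2 called higher) and 0.05 beyond 400 kb. From 50 to 100 kb medians were 0.37 on the left (19 NDRs) and 0.11 on the right (22 NDRs). Of the 434 far NDRs of VII, 44 were higher and 13 lower at an unadjusted p under 0.05. On the other chromosomes 261 were higher and 153 lower of 4373.

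The strongest of the 7 far calls on VII stood at methionine genes. STR3 encodes a cystathionine beta-lyase, which makes homocysteine, the precursor of methionine. The 2 NDRs upstream of STR3, 100 kb from PCL10 towards the telomere, rose by 2.05 (SE 0.19, adjusted p = 5.78e-24) and 1.77 (SE 0.25, adjusted p = 1.41e-09), with base means of 507 and 116. Their starts are 195 bp apart, so they can share fragments.

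MUP1 encodes the high-affinity methionine permease and lies on the right arm, 342 kb from PCL10 and 102 kb beyond the centromere. Its promoter NDR rose by 1.27 (SE 0.19, adjusted p = 2.21e-08) at a base mean of 394. On the same arm, the NDR of YGR050C, 336 kb away, rose by 0.84 (SE 0.19, adjusted p = 0.00523).

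Several NDRs lie close to STR3 and MUP1. Next to STR3, the NDR of GTS1 and MND1, 1.35 kb away, was at 0.83 (SE 0.24, adjusted p = 0.0519) and that of ATG1, 2.99 kb away, at 0.66 (SE 0.19, adjusted p = 0.0576). Both just missed the limit on adjusted p, and ATG1 was also under the log2 cutoff of 0.7. Around MUP1, the NDRs 2.46 to 2.68 kb away at YGR054W and RSC1 were at -0.14, 0.30 and 0.41, and none was called. Around all NDRs called higher beyond 30 kb, neighbours that were not called had medians of 0.29 within 0.5 kb (4 NDRs), 0.10 at 0.5 to 1 kb (8), -0.07 at 1 to 2 kb (10), -0.03 at 2 to 3 kb (28) and 0.05 at 3 to 5 kb (38). Since called neighbours are left out of these medians, they are descriptions only.

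The other far calls were FHN1, a plasma membrane protein gene 498 kb away (0.92, SE 0.23, adjusted p = 0.0142), and AFT1, the iron-regulated transcription activator, 115 kb away (0.76, SE 0.20, adjusted p = 0.0340). The AFT1 NDR starts at the end of HSF1, the neighbouring heat shock factor gene. One far NDR of VII was called lower: that between RPL24B, a ribosomal protein gene, and GPC1 fell by 0.76 (SE 0.18, adjusted p = 0.00848) at 532 kb.

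Motifs of the methionine regulators were looked up in these NDRs. Cbf1 binds CACGTG, which reads the same on both strands, and the core bound by Met31 and Met32 is CTGTGG, searched on both strands. CACGTG was found in 18 of the 455 NDRs of VII (3.96%) and in 2 of the 12 called higher, both in SCS3. CTGTGG was found in 25 of 455 (5.49%) and in 3 of the 12, which were STR3, SCS3/MET13 and MUP1. NDRs differ in length, and a match is a description of the letters, not of binding.

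On other chromosomes the called NDRs were weaker, with log2 fold changes from 0.73 to 1.15. They were spread over 7 chromosomes, with 6 on XV, 3 each on VIII and XIV, 2 on II and 1 each on IV, V and IX. Chromosomes I, III, VI, X, XI, XII, XIII and XVI had none. As a share of NDRs, XV had 1.28% called higher and VIII 1.33%. The share was 0.389% over all NDRs of other chromosomes and 1.61% of the far NDRs of VII. The shares of XV and VIII rest on 6 and 3 NDRs only.

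Cell surface genes and transporters were among them. TIR4, a cell wall mannoprotein gene on XV, rose by 1.15 (SE 0.25, adjusted p = 0.00167), and the NDR 0.444 kb from it was at 0.40. HXT1, a low-affinity glucose transporter gene on VIII, rose by 0.93 (SE 0.23, adjusted p = 0.0142) in one NDR and was at 0.19 (SE 0.20, adjusted p = 0.848) in the other. GDT1, a Golgi cation transporter gene on II whose NDR starts within PCH2, rose by 0.87 (SE 0.19, adjusted p = 0.00211). PET8, the mitochondrial carrier of S-adenosylmethionine on XIV, rose by 0.85 (SE 0.21, adjusted p = 0.0140), and PNS1 on XV rose by 0.83.

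Others stood at genes of signalling, metabolism and gene control. MED4, a Mediator subunit gene on XV, rose by 1.01 (SE 0.25, adjusted p = 0.0140). The calmodulin-dependent kinase gene CMK2 rose by 0.93 and PHM7, a phosphate-regulated gene, by 0.76, both on XV. DMA2, a ubiquitin ligase gene on XIV, rose by 0.91, DED81, the cytosolic asparaginyl-tRNA synthetase gene on VIII, by 0.82, and SLM4, a gene of the vacuolar EGO complex on II, by 0.81.

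The mannosyltransferase gene MNN1 on V rose by 0.73, RTC3 on VIII by 0.76, the noncoding transcript SUT053 on IV by 0.77 and YIR018C-A on IX by 0.74. GDH1, a glutamate dehydrogenase gene on XV, rose by 0.79, and CYB5, the cytochrome b5 gene on XIV, by 0.84. All 17 had base means of at least 75.1.

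Position along the chromosome arms was also described. Of the 411 NDRs within 30 kb of a centromere, 3 were called higher (0.730%, near the 0.601% over all NDRs): MNN1 at 0.962 kb, PET8 at 2.92 kb and TIR4 at 16.8 kb from their centromeres. EMC6, 28.9 kb from its centromere, was called lower. None of the 306 NDRs within 30 kb of a chromosome end was called in either direction, and their median log2 fold change was 0.00.

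Lower calls numbered 9. MDY2 and SHR5, genes for tail-anchored protein insertion and for protein palmitoylation, share an NDR on XV that fell by 1.27 (SE 0.23, adjusted p = 2.10e-05). An NDR inside the RNA helicase gene DBP2 on XIV fell by 1.37 (SE 0.28, adjusted p = 5.98e-04), and one on IV whose nearest gene is FOB1, the replication fork barrier gene of the ribosomal DNA, fell by 1.32 (SE 0.30, adjusted p = 0.00538). The DBP2 NDR starts 2.38 kb from the CYB5 NDR, which rose. EMC6 fell by 1.14, the NDR at SUP6, PTR3 and CDC14 by 0.88, and VMA1, a vacuolar ATPase gene, by 0.94.

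A pair of the lower calls belong to the gene families named earlier. One NDR of PCL5, another Pho85 cyclin, on VIII, fell by 1.03 (SE 0.29, adjusted p = 0.0479), while a second PCL5 NDR, with a base mean of 428, was at 0.16 (SE 0.18, adjusted p = 0.864). HXT7, a high-affinity glucose transporter gene on IV, fell by 0.74 (SE 0.21, adjusted p = 0.0479). The called NDRs at PCL5 and beside FOB1 had low base means of 33.2 and 20.7.

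Gene lists gave few calls. Of 46 NDRs at methionine regulon genes, 4 were called higher (STR3 in 2 NDRs, MUP1 and MET13), all on chromosome VII, and none lower. That is 8.70%, against 0.601% over all NDRs and 2.64% (12 of 455) on VII, and it includes the local MET13 and the STR3 pair. The median of the 46 was 0.06, against -0.01 over all NDRs, and 1 of the other 42, at SUL1, was lower at an unadjusted p under 0.05. Of 15 NDRs at Pho85 cyclin genes, PCL10 itself was called higher and PCL5 lower, with a median of 0.03. None of the 19 NDRs at glycogen genes was called (median 0.06).

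These counts stand beside 0.601% called higher and 0.186% called lower over the table. The phosphate regulon had 1 of 23 NDRs called higher, hexose transport 1 of 16 higher and 1 lower, and cell wall mannoproteins 1 of 32 higher. Glycolysis (21 NDRs), heat shock proteins (17), the galactose pathway (9), inducible genes known at nuclear pores (15) and seripauperins (34) had no call, with medians of 0.09, 0.07, 0.21, 0.04 and -0.07. Ribosomal protein genes had 1 of 207 called higher (0.483%), that beside PCL10, and 1 lower. Transfer RNA genes had none of 405 called higher and 1 lower, with a median of -0.09.

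The log2 fold change moved with base mean across the table. The Spearman correlation over 4828 NDRs was 0.42, given as a description, and the running median over 201 NDRs ranked by base mean went up to 0.23 and down to -0.21. Of the 29 NDRs called higher, 26 lay in the top 30% by base mean, above 77.2. After this running median was removed, 4 local, 4 far and 1 other-chromosome NDR were called higher and 24 were called lower, so the split of 29 higher and 9 lower turned to 9 and 24. TIR4 was the other-chromosome NDR that remained, and SNF4, MUP1 and the STR3 pair remained on VII.

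**Figure D3:**
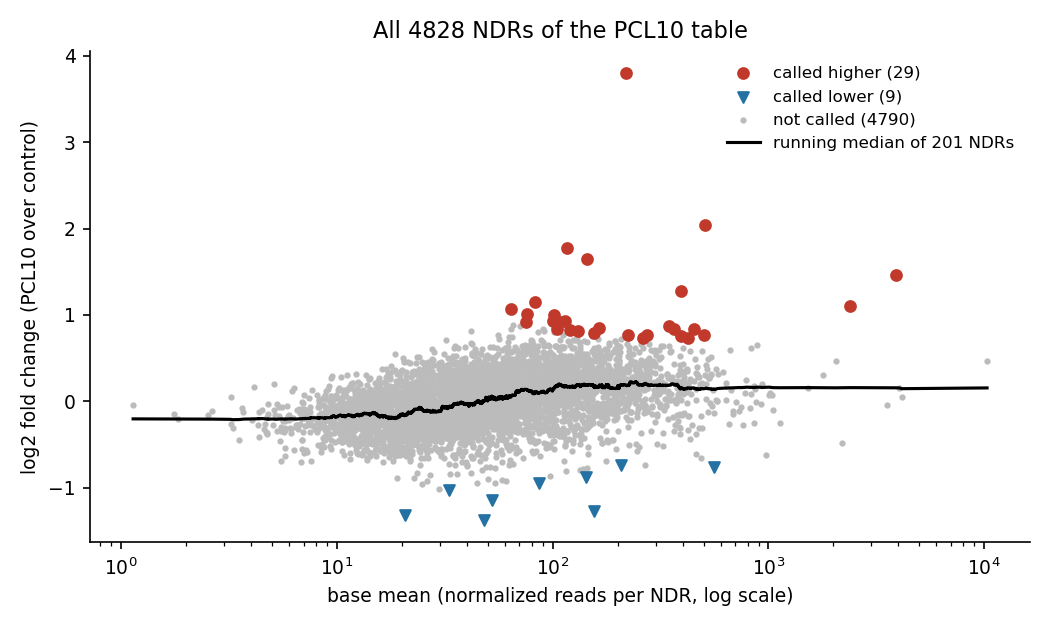
Log2 fold change (PCL10 strain over control) of all 4828 NDRs against base mean on a log scale; red points are called higher, blue triangles called lower, grey points not called, and the black line is the running median of 201 NDRs. The line lies between -0.21 and 0.23, and 26 of the 29 NDRs called higher have a base mean above 77.2.

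Values of the called NDRs in other tables bear on how they can be read. The 10 other 2 h viewpoints were compared with the same control libraries, so their values are not independent of those for PCL10. The control level computed from each table correlated with that of PCL10 at r between 0.997 and 0.999 for those 10, and between 0.924 and 0.972 for 4 tables (TRP2 with and without methionine, MATa and MATalpha) that used other controls. Those 4 differ in more than the control. The TRP2 pair is labelled by methionine. The MAT tables are labelled D, which the paper gives as glucose in its switching assay, and MATalpha is the other mating type. The 17 NDRs of other chromosomes had a median of 0.83 with the array at PCL10, 0.86 at CDC43 and 0.84 at YBP2. In the tables with other controls the medians were -0.14 (TRP2 with methionine), 0.06 (TRP2 without methionine), -0.31 (MATa) and -0.10 (MATalpha).

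Single NDRs varied around these medians. Over the 4 tables with other controls, the 17 NDRs lay between -0.71 and 0.69. TIR4 was at 1.15 with the array at PCL10, between 0.54 and 1.27 in the 10 other tables and between -0.71 and -0.09 in the 4 with other controls. HXT1 was at 0.93 with PCL10, 0.57 to 1.42 in the 10, and -0.35 to 0.07 in the 4. DMA2 was at 0.91 with PCL10 and at 0.69 and 0.26 with the array at TRP2 without and with methionine, and CYB5 was at 0.84 with PCL10, 0.45 with MATa and 0.28 with TRP2 with methionine. The 9 lower NDRs had a median of -1.03 with PCL10, -0.41 with CDC43 and -0.82 with YBP2, against -0.49, 0.02, 0.14 and -0.01 in the 4 tables. The part of the shared control in these calls was not tested. In the 4 tables it cannot be told apart from viewpoint, medium or mating type.

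STR3 and MUP1 were also high elsewhere. The stronger STR3 NDR was at 2.05 with PCL10, 2.88 with CDC43 and 1.77 with YBP2, and between 0.84 and 2.88 over the 10 tables. With the array at TRP2 it was at 0.95 without methionine and 0.11 with methionine. MUP1 was at 1.27 with PCL10, 1.54 with CDC43 and 2.45 with YBP2, and at 1.25 and 0.13 with the array at TRP2 without and with methionine. SCS3/MET13 was at 0.96 and 0.47 in those TRP2 tables. The medium of the PCL10 libraries is not labelled. For SHC1, a viewpoint among the 10 with the same control, the paper describes growth without methionine. The part of methionine supply in the PCL10 values was not tested, and it cannot be told apart from viewpoint.

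**Figure D4:**
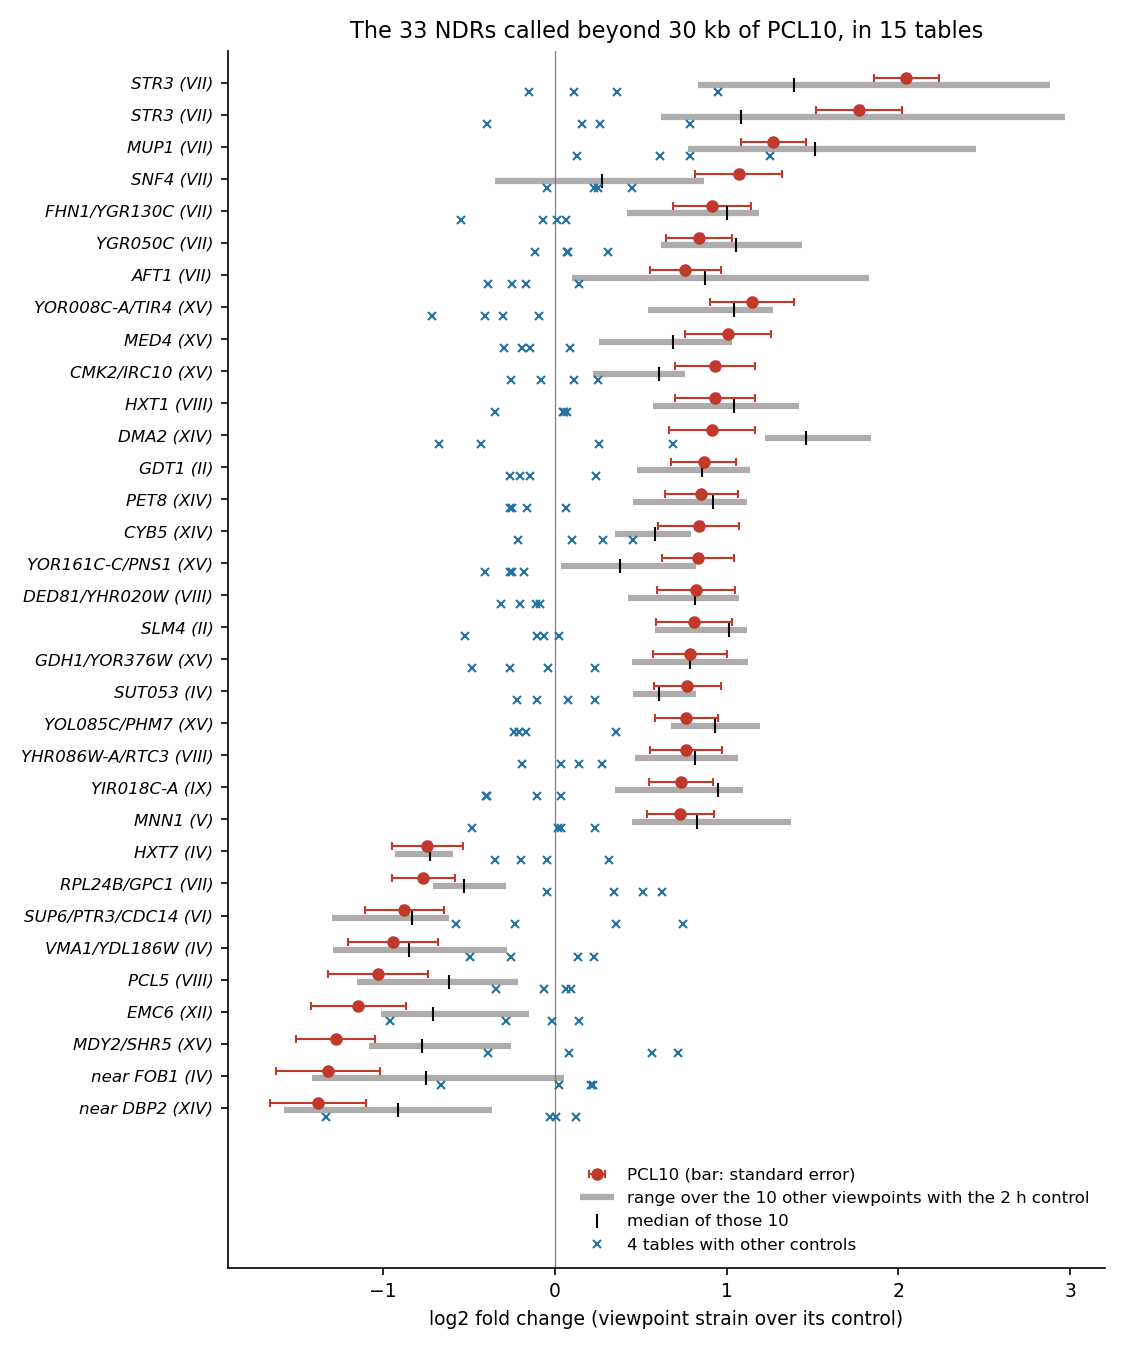
Log2 fold change of the 33 NDRs called beyond 30 kb of PCL10 (24 higher, 9 lower), with the chromosome in brackets; red points are PCL10 with 1 SE, grey bars the range and black ticks the median over the 10 other viewpoints with the same 2 h control, and blue crosses the 4 tables with other controls. TIR4 is at 1.15 for PCL10, within the grey bar from 0.54 to 1.27, and its crosses lie from -0.71 to -0.09.

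Direct tests set PCL10 against 2 other left-arm viewpoints of VII, CDC43 (41.7 kb away) and YBP2 (135 kb away), by dividing the log2 difference between tables by its combined SE, with p adjusted over 4828 NDRs. Against CDC43, 1 NDR (0.0207%) was higher from PCL10 and 2 (0.0414%) were lower. The higher one was ITC1 (difference 3.81, SE 0.40, adjusted p = 2.80e-18). The lower ones were the neighbours of CDC43, LYS5/PEX14 (-2.36, adjusted p = 9.82e-07) and NUT1 (-1.92, adjusted p = 2.68e-04). At an unadjusted p under 0.05, 5 NDRs were higher and 43 lower.

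Against YBP2, 1 NDR (0.0207%) was higher, again ITC1 (difference 4.30, SE 0.43, adjusted p = 2.39e-20), and 6 (0.124%) were lower. Those were PKP2 (-4.78), SDS23/OLE1 (-2.12), RIM8 (-1.34) and PYC1/PUS2 (-1.23) around YBP2, MUP1 (-1.18, adjusted p = 0.00262) and TIM23 on XIV (-1.10, adjusted p = 0.0129). By this test MUP1 was higher with the array at YBP2 than at PCL10. After the running median over base mean was removed from both, 2 NDRs were lower instead of 6. Whether MUP1 was among those 2 is not given here. At an unadjusted p under 0.05, 11 NDRs were higher and 71 lower.

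The NDRs next in rank did not pass. Against CDC43 these were the weaker STR3 NDR (-1.20, 95% interval -1.85 to -0.54, adjusted p = 0.398), ARO2/INO80 (-1.08, adjusted p = 0.462) and the stronger STR3 NDR (-0.84, adjusted p = 0.742), all lower from PCL10. Against YBP2 the next was AFT1 (-1.07, 95% interval -1.61 to -0.52, adjusted p = 0.0735). Local NDRs other than ITC1 ranked below these. PCL10/RPL1B differed by 0.82 from CDC43 (95% interval 0.16 to 1.48, adjusted p = 0.999) and by 1.17 from YBP2 (0.44 to 1.90, adjusted p = 0.673). SOH1/SCS3 differed by 1.02 from YBP2 (0.35 to 1.70, adjusted p = 0.778) and by 0.35 from CDC43 (-0.27 to 0.97). SCS3/MET13 differed by -0.78 from CDC43 (-1.45 to -0.11) and SNF4 by 0.78 from CDC43 (adjusted p = 0.999). SEs were added as if the tables were independent, although they share the control.

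HIS3, the selection marker, was inserted with the array, and the HIS3 gene itself lies on XV. The table's NDRs there, at BFR1 and at DED1/HIS3/MRM1, were at 0.23 (SE 0.25) and 0.01 (SE 0.29), and neither was called.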

How the data were processed

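MeDIP libraries of 2 PCL10 and 2 control cultures were compared per NDR. Per the labels, the authors trimmed reads with fastp 0.23.2, aligned them to sacCer3 with BWA 0.7.17, removed duplicates with Picard, counted reads per NDR with featureCounts 2.0.3 and ran DESeq2 1.38.0. The deposited base mean is a signal (mean normalized reads), and the deposited log2 fold changes and their SEs are on the log2 scale. These are the authors' own comparison columns, used because the table holds nothing per library. The deposited adjusted p-value was used as an alternative only. Here p-values were recomputed from log2 fold change and SE and adjusted over all NDRs (SciPy 1.17.1, pandas 2.3.3, NumPy 2.4.6; Python 3.11.15), after a test on simulated data. Genes starting within 1 kb name an NDR. Named NDRs were those local and called or within 10 kb, all far calls, the 15 trans calls and 8 lower calls with the smallest adjusted p, calls at listed genes, leaders of each comparison and neighbours of 4 leading NDRs; the rest were added after seeing values. Gene names and sequences come from RefSeq R64. Members and lists were chosen with earlier results of these data known.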

Additional observations from a re-analysis of the deposited data

How the results depend on the processing

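No paired analysis was possible because the tables hold no value per library; leaving out a library could not be run for the same reason. The cause of each change below was not tested. With a log2 cutoff of 1, 4 far, 2 other-chromosome and 5 lower NDRs were called; with an adjusted p cutoff of 0.01, 3 other-chromosome and 5 lower; with base means of at least 30, 26 other-chromosome and 17 lower. Removing the running median left 4 far and 1 other-chromosome NDR and gave 24 lower, and 2 lower against YBP2. Counting called NDRs within 1 kb once, an alternative chosen after seeing the data, gave 3 local. Within 20 kb the local median was 0.77. Adjusting over NDRs called in either table gave 5 lower against CDC43, both STR3 NDRs among them, and 3 higher and 13 lower against YBP2, with PCL10/RPL1B and SOH1/SCS3 among the higher and AFT1 among the lower. The local count lay between 4 and 6 under the other alternatives tried, and no called NDR changed sign.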
